A study of Mus musculus with 4 samples.

Results

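The transcripts of 41 genes of cholesterol and fatty acid metabolism were compared between the cerebella of Dicer mutant mice and those of their control littermates. The genes were chosen by name: 17 encode enzymes of sterol synthesis, 10 encode enzymes of fatty acid synthesis, 7 encode regulators of both routes, and 7 act in sterol transport, storage and turnover. On the array they were represented by 77 probes of 41174, printed in 86 spots, and all 41 were among the 18025 genes tested. Each of the 41 probes that stood for a gene was well above background in both channels of all 4 arrays, so low signal removed no gene.

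Cerebella were taken at postnatal day 30 from 4 biologically independent littermate pairs on a mixed background. Mutants had the genotype mGfap-Cre; Dicer flox/flox, with 2 floxed alleles of the gene for the enzyme that makes mature microRNAs. Controls had the genotype mGfap-Cre; Dicer +/flox, so they carried the same Cre transgene and 1 floxed allele, and no Cre-negative or unfloxed animal was part of the comparison. Cre was driven by a mouse Gfap promoter (the mGfap-cre 73.12 line), and RNA came from whole cerebellum, in which astroglia are 1 cell type among many. Each pair shared a two-colour array, with the mutant in Cy5 in pairs 1 and 3 and in Cy3 in pairs 2 and 4. The series title names the question as what the loss of Dicer in astroglia does to neurons.

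Between 26291 and 28907 probes per channel were well above background. All 4 arrays were treated as 1 slide and scan batch, and the fit held no batch term. Dicer1 itself had log2 ratios of 0.26, -0.27, 0.07 and 0.10 in pairs 1 to 4 (adjusted p = 0.947, limma), which in whole tissue does not measure a deletion in astroglia. With 4 arrays, the number of pairs limits the precision of every value given here. Throughout, a log2 ratio is mutant over control within a pair, means are ± SD over the pairs (n = 4), and a gene was called, and is said to have risen or fallen, at an adjusted p under 0.05 over all tested genes.

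Cholesterol is built from acetyl-CoA through mevalonate, farnesyl pyrophosphate and squalene, and in the brain it is made locally, because lipoproteins of the blood do not cross the blood-brain barrier. Oligodendrocytes use it for myelin, and astroglia also pass it to neurons on particles that carry apolipoprotein E and are loaded by ABC transporters. Transcription of the synthesis genes is driven by the sterol regulatory element-binding proteins SREBP-1 and SREBP-2, which act at promoters together with the factors NF-Y and Sp1, while liver X receptors drive export genes and Srebf1.

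The promoters of 4 genes are shown as examples, Hmgcs1, Mvk and Cyp51 of sterol synthesis and the export gene Abca1. They are from RefSeq (build GRCm38.p6) and are printed on the gene's strand, from upstream towards the transcription start. Hmgcs1 lies at chr13:119690101-119690350 (plus strand), Mvk at chr5:114444019-114444263 (plus strand), Cyp51 at chr5:4104698-4104947 (minus strand) and Abca1 at chr4:53159989-53160145 (minus strand). Capitals mark the NF-Y box CCAAT (which reads ATTGG on the other strand), the Sp1 box GGGCGG (which reads CCGCCC on the other strand), the core CACCCCAC of the sterol regulatory element and the E-box CACGTG.
Hmgcs1: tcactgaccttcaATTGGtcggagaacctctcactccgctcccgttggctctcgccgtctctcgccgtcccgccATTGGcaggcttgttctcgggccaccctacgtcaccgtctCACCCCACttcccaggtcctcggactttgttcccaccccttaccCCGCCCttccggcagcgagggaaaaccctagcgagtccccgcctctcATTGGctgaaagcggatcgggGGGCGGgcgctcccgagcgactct
Mvk: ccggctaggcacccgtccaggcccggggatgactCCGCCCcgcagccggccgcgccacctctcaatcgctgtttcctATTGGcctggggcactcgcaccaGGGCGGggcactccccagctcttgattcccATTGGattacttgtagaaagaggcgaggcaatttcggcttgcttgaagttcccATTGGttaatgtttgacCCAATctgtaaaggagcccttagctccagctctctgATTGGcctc
Cyp51: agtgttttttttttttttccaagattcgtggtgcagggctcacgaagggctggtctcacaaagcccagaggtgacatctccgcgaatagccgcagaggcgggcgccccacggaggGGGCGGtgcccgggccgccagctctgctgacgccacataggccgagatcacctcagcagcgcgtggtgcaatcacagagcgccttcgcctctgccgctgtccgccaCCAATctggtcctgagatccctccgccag
Abca1: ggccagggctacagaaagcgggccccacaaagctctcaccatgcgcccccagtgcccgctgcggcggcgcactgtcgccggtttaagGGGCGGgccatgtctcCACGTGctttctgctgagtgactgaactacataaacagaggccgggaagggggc

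The promoter of Mvk held 5 NF-Y boxes and 2 Sp1 boxes in the stretch shown. That of Hmgcs1 held 3 NF-Y boxes, 2 Sp1 boxes and the sterol regulatory element core, which began at base -136 relative to the start. That of Cyp51 held 1 of each box, and that of Abca1 held no NF-Y box, 1 Sp1 box and 1 E-box. The Abca1 stretch is shorter than the others (157 bases against 245 to 250), since it ends at the gene's outermost annotated start. In the full windows that were searched, Abca1 held 1 more Sp1 box and still no NF-Y box, and Hmgcs1 held 1 more of each. The lack of an NF-Y box was not particular to Abca1. Among others of the lipid genes, Apoe, Fads2 and Lrp1 also held none, while Soat1 held the box. Whether a box goes with the direction of a ratio was not tested. The Sp1 and NF-Y boxes shown overlapped no other motif searched.

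Promoter windows of 250 bases before to 50 after the start were listed for 33 of the 41 genes and were searched on both strands. Some genes had more than 1 window, up to 3 as in Dhcr7, and a gene was counted if any of its windows held the motif. Among the sterol synthesis genes, no promoter was listed for Sqle, Fdft1 and Fdps. The NF-Y box was found in 14 of the 14 sterol synthesis genes with a listed promoter (100%). It was found in 10 of 19 other lipid genes (52.6%) and 4689 of 11019 tested genes (42.6%). The Sp1 box was found in 13 of 14 sterol synthesis genes (92.9%), against 63.2% of the other lipid genes and 66.4% of tested genes. The median GC content was 61.3% in the sterol synthesis promoters and 60.3% in those of tested genes. The E-box CACGTG was present in 3 of 14 sterol synthesis genes (21.4%; Hsd17b7, Sc5d and Dhcr7) and in 11.4% of tested genes. The core CACCCCAC was present in Hmgcs1 alone among the 33 genes, and in 3.71% of tested genes. Of the full sterol regulatory element, which contains that core, only a single exact spelling was searched. The liver X receptor repeat was likewise searched by exact letters around a spacer of any 4 bases. Neither spelling was in any window of the 33 genes. Variant spellings were not searched, so a promoter without a match may still hold such an element. The spellings searched were also rare in all 27025 genes of the table, at 0.0999% and 0.0148%. These matches describe the letters of the windows and do not locate a bound factor.

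**Figure D1:**
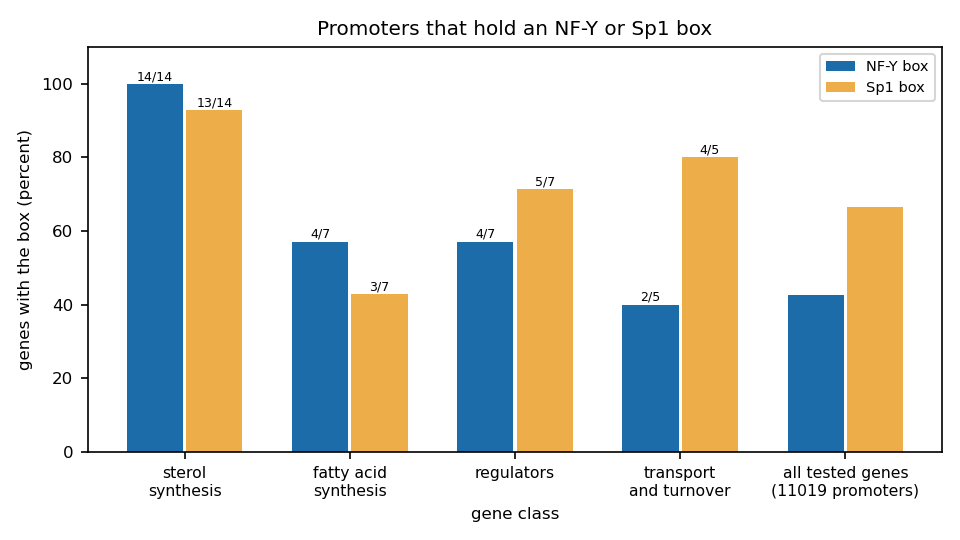
Share of genes, in percent, with an NF-Y box (blue) or an Sp1 box (yellow) in any of their promoter windows. Values are by class of lipid gene and for 11019 tested genes with a listed promoter. Numbers over the bars are genes with the box over genes with a promoter. All 14 sterol synthesis genes with a listed promoter hold the NF-Y box, against 42.6% of tested genes.

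Because Dicer makes microRNAs, 5 mature microRNAs that have been reported elsewhere to target Abca1 are also shown, from RefSeq, with the seed (bases 2 to 8) in capitals. No microRNA was measured on these arrays.
mmu-miR-33-5p: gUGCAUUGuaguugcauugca
mmu-miR-758-3p: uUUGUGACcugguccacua
mmu-miR-106b-5p: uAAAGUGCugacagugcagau
mmu-miR-26a-5p: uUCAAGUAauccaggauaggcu
mmu-miR-144-3p: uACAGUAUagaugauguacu
The 5 have 5 different seeds. The miR-33 sequence lies at chr15:82198127-82198147, inside Srebf2 (chr15:82147269-82205379), the gene of SREBP-2.

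Most of the 41 genes had a lower mean in the mutants, but few differences passed the test. The mean log2 ratio was below 0 for 35 genes and above 0 for 6, where 49.1% of all tested genes were below 0, and the median was -0.15 against 0.00 over all tested genes. In 20 genes the ratio was below 0 in all 4 pairs, a pattern seen in 7.32% of all tested genes, and in 2 genes it was above 0 in all 4 pairs, against 7.75%. At an adjusted p under 0.05, 1 gene rose (Abca1; 0.588% of all tested genes rose) and 1 fell (Scd2; 0.444% fell). A further 39 genes were not called, with means from -0.62 to 0.31. Without adjustment, 16 of the 41 were lower and 2 higher at p under 0.05, where 4.51% and 4.87% of tested genes were. Genes of one route are regulated together and are not independent of each other, so these counts describe the list and carry no test. In whole tissue, fewer cells of a type and less RNA per cell cannot be told apart.

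**Figure D2:**
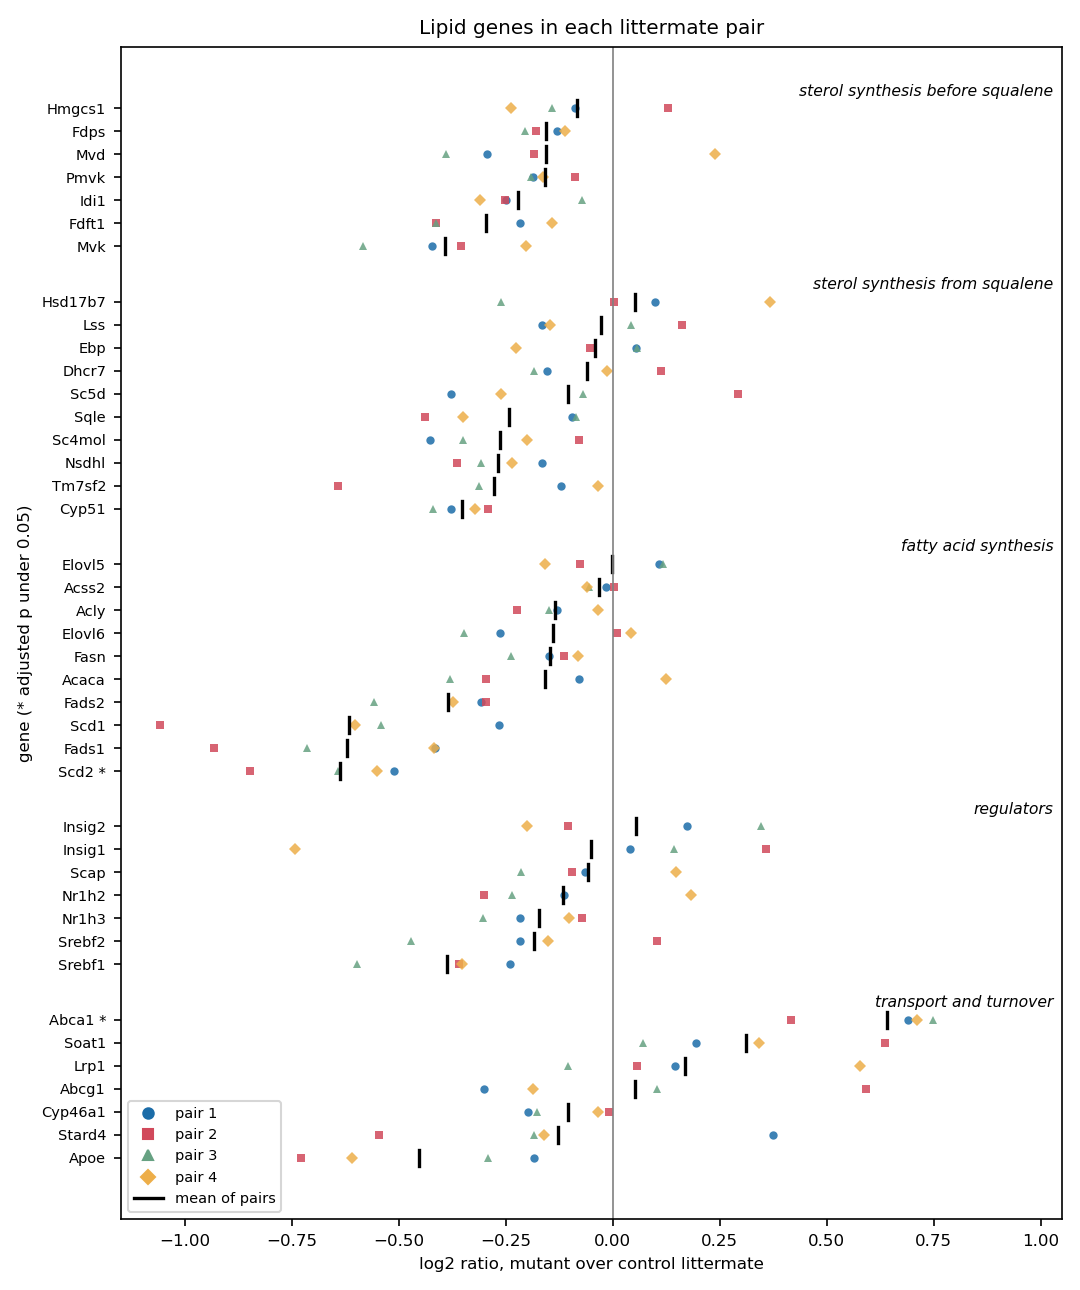
Log2 ratio of mutant over control for each of the 41 lipid genes in each littermate pair (coloured symbols), with the mean of the pairs as a black bar, grouped by class. An asterisk marks an adjusted p under 0.05, which Abca1 (mean 0.64) and Scd2 (mean -0.64) reached; 35 of the 41 means lie below 0.

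The early enzymes of sterol synthesis, which lead from acetyl-CoA units to squalene, were below 0 in the mean for all 7 genes, and none was called. Mvk encodes mevalonate kinase. Its normalized log2 intensity was 9.35, 9.24, 9.62 and 9.33 in the controls of pairs 1 to 4 and 8.92, 8.88, 9.04 and 9.12 in the mutants. Every mutant lay below every control, and the log2 ratio was -0.39 ± 0.16 with an adjusted p of 0.0905 (limma). Its other probe gave -0.37.

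Fdft1, squalene synthase, had log2 ratios of -0.22, -0.41, -0.41 and -0.14 (mean -0.30 ± 0.14, adjusted p = 0.249 by limma). Idi1, the isomerase that makes dimethylallyl pyrophosphate, had -0.25, -0.25, -0.07 and -0.31 (mean -0.22 ± 0.10, adjusted p = 0.322 by limma). Both genes were below 0 in all 4 pairs without passing the test. The array file places both Idi1 probes on chromosome 2 of mm9, while RefSeq lists Idi1 on chromosome 13 of GRCm38.p6, so the values hold for the probes named Idi1. Pmvk and Fdps, a kinase and a prenyl transferase of the same route, had small ratios with little spread, at -0.16 ± 0.05 and -0.16 ± 0.04. Mvd, the decarboxylase between them, was above 0 in pair 4 (0.24) and below 0 in the other pairs. Hmgcs1, the synthase that forms HMG-CoA, had the ratio nearest 0 of these 7 genes, at -0.08 ± 0.16, and 1 of its 2 further probes had the opposite sign.

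The 10 enzymes from squalene to cholesterol were below 0 in the mean for 9 genes, none called. Cyp51, the lanosterol demethylase, had control levels of 9.90, 9.88, 10.19 and 10.05 and mutant levels of 9.53, 9.59, 9.77 and 9.73 on the log2 intensity scale. The groups did not overlap, and the 4 ratios lay close together, from -0.42 to -0.29. The mean was -0.35 ± 0.06 with an adjusted p of 0.0824 (limma), and the further probes of Cyp51 gave -0.27 and -0.24.

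Sc4mol, now named Msmo1, encodes the sterol C4 methyl oxidase and had log2 ratios of -0.43, -0.08, -0.35 and -0.20 (mean -0.26 ± 0.16, adjusted p = 0.194 by limma). Nsdhl acts in the same demethylation and had -0.16, -0.36, -0.31 and -0.24 (mean -0.27 ± 0.09, adjusted p = 0.209 by limma). The 3 further probes of Nsdhl ran from -0.39 to -0.17, so all of its probes had the same sign. Sqle, squalene epoxidase, stood at -0.24 ± 0.18, and the reductase gene Tm7sf2 at -0.28 ± 0.27. The spread of Tm7sf2 came with a ratio of -0.64 in pair 2 and -0.03 in pair 4.

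By the probes that stood for them, the other 5 enzymes of this stretch lay nearer to 0. Lss, lanosterol synthase, had a mean of -0.03 ± 0.16, the isomerase gene Ebp -0.04 ± 0.13 and the reductase gene Dhcr7 -0.06 ± 0.14. Sc5d, a sterol desaturase gene, ran from -0.38 in pair 1 to 0.29 in pair 2, and Hsd17b7, a ketoreductase gene, from -0.26 in pair 3 to 0.37 in pair 4. A further probe of Sc5d gave 0.04, -0.54, -0.13 and -0.38 (mean -0.25), with the opposite sign in pairs 1 and 2. In each of these 5 genes the sign of the probe that stood for the gene differed between pairs. Within the 17 sterol genes, 10 were below 0 in all 4 pairs and 5 had every mutant level below every control level (Mvk, Pmvk, Cyp51, Nsdhl and Tm7sf2), where 1.78% of all tested genes had that order.

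The 10 genes of fatty acid synthesis all had a mean below 0, and 1 was called. The 4 genes that lead to palmitate had small ratios: Acly, ATP citrate lyase, -0.13 ± 0.08; Fasn, fatty acid synthase, -0.15 ± 0.07; Acaca, acetyl-CoA carboxylase, -0.16 ± 0.23; and Acss2, acetyl-CoA synthetase, -0.03 ± 0.03. None was called, and 2 further probes of Acaca had means of 0.01 and 0.02. The 6 desaturases and elongases had a median of -0.50, against -0.14 for the 4 genes before them. The difference between these medians was not tested. The elongase genes Elovl5 and Elovl6 stood at 0.00 ± 0.14 and -0.14 ± 0.20. The other desaturase genes tested, which are not among the 41, had means nearer to 0 than those of Scd1, Scd2, Fads1 and Fads2: Scd3 -0.02 ± 0.12, Fads3 0.06 ± 0.22 and Fads6 -0.10 ± 0.14.

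Scd2 encodes the stearoyl-CoA desaturase that is abundant in brain, an enzyme that introduces a double bond into saturated fatty acids. Its log2 intensity was 15.85, 16.08, 15.97 and 15.97 in the controls and 15.34, 15.23, 15.33 and 15.42 in the mutants. The groups did not overlap, and all 4 mutants were lower. The log2 ratios were -0.51, -0.85, -0.64 and -0.55, with a mean of -0.64 ± 0.15 and a 95% interval of -0.83 to -0.45. Scd2 fell by 35.8% (adjusted p = 0.0313 by limma; 1 probe, A_51_P129464, chr19:44381024-44381083, mm9), but it was not called without pair 1 or without pair 3 (adjusted p = 0.147 and 0.161).

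Scd1, its close paralogue on the same chromosome, had control levels of 11.79, 11.98, 11.40 and 11.72 and mutant levels of 11.52, 10.92, 10.86 and 11.12. All 4 ratios were negative, but the mutant of pair 1 lay above the control of pair 3, so the groups overlapped. The mean was -0.62 ± 0.33 with an adjusted p of 0.0824 (limma). The ratio was -0.27 and -0.54 with the mutant in Cy5 and -1.06 and -0.60 with it in Cy3. The fitted dye effect was 0.21. Whether the Scd1 and Scd2 probes also bind the other transcript was not tested.

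Fads1 encodes the delta-5 desaturase of polyunsaturated fatty acids. Its log2 intensity was 11.41, 11.50, 11.64 and 11.74 in the controls and 11.00, 10.56, 10.92 and 11.32 in the mutants, without overlap. The mean ratio was -0.62 ± 0.25, close to that of Scd2 with a wider spread, and it was not called (adjusted p = 0.0998 by limma). Fads2, the delta-6 desaturase gene beside it on chromosome 19, had a mean of -0.38 ± 0.12 (adjusted p = 0.111 by limma), and its levels did not overlap either.

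**Figure D3:**
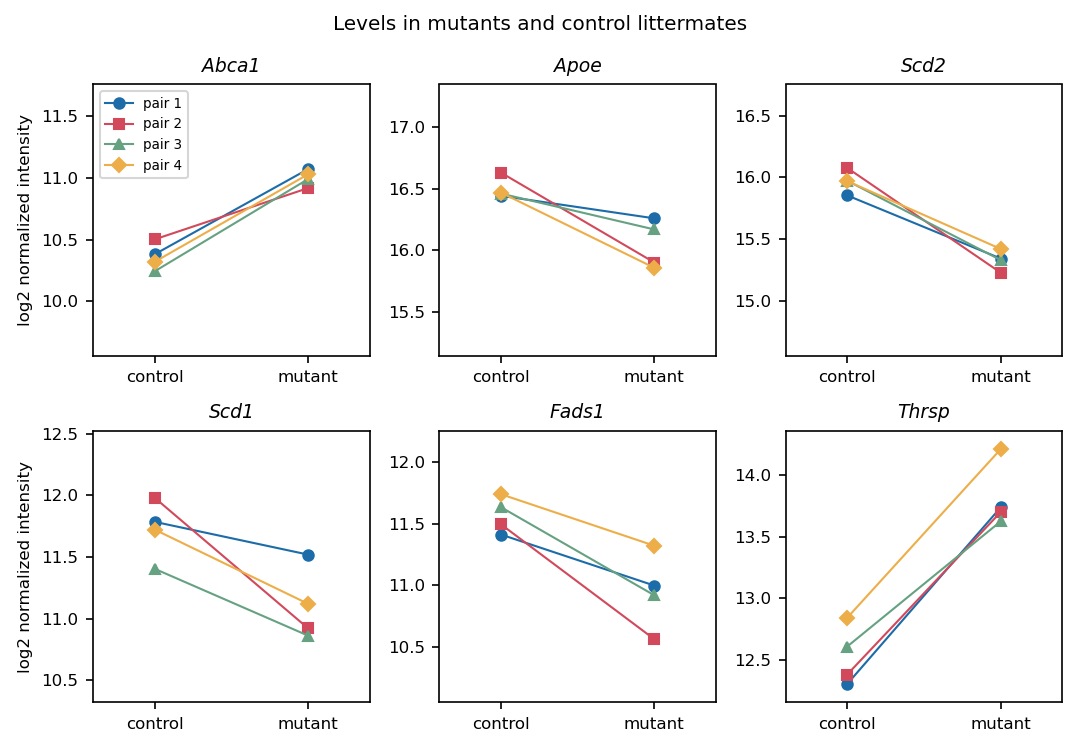
Log2 normalized intensity of 6 lipid genes in the control and the mutant of each littermate pair, joined by lines; every panel spans the same range of the log2 scale, and levels are not to be compared between genes. In Abca1 and Thrsp all mutants lie above all controls, in Apoe, Scd2 and Fads1 all lie below, and in Scd1 the groups overlap.

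Of the regulators, Srebf1 stood lowest. It encodes SREBP-1, which drives fatty acid synthesis, and its log2 intensity was 12.68, 12.60, 12.55 and 12.54 in the controls and 12.44, 12.24, 11.95 and 12.19 in the mutants. The groups did not overlap. The mean ratio was -0.39 ± 0.15 with an adjusted p of 0.144 (limma), so Srebf1 was not called.

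Srebf2, the gene of SREBP-2, had log2 ratios of -0.22, 0.10, -0.47 and -0.15 (mean -0.18 ± 0.24, adjusted p = 0.579 by limma), and 2 further probes gave -0.22 and -0.19. Nr1h3, the liver X receptor alpha gene, had -0.22, -0.07, -0.30 and -0.10 (mean -0.17 ± 0.11, adjusted p = 0.426 by limma), and Nr1h2, liver X receptor beta, had a mean of -0.12 ± 0.21. Only Srebf1 and Nr1h3 of the 7 regulators were below 0 in all 4 pairs. Scap, which escorts SREBPs out of the endoplasmic reticulum, stood at -0.06 ± 0.15, and Insig2, which retains them there, at 0.05 ± 0.25. Insig1 ranged most, with 0.04, 0.36, 0.14 and -0.74, so the sign of its mean of -0.05 is set by pair 4. Without pair 4 its ratio was 0.23 in the fit with the dye term, which does not weigh the remaining pairs equally. The wide range over the pairs was not seen in its further probe, at 0.01, -0.16, -0.20 and -0.16 (mean -0.13 ± 0.09).

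The genes of sterol transport and turnover did not lean one way. Abca1 encodes the transporter that loads cholesterol and phospholipid onto apolipoproteins. Its log2 intensity was 10.38, 10.503, 10.24 and 10.32 in the controls and 11.07, 10.92, 10.99 and 11.03 in the mutants. Every mutant lay above every control, an order seen in 2.19% of all tested genes and in no other of the 41. The ratios were 0.69, 0.42, 0.75 and 0.71, with a mean of 0.64 ± 0.15 and a 95% interval of 0.46 to 0.82. Abca1 rose 1.56-fold (adjusted p = 0.0280 by limma; 1 probe, A_52_P665675, chr4:53043944-53044003, mm9), but it was not called without pair 1 or without pair 3 (adjusted p = 0.155 and 0.143).

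Apoe, the main apolipoprotein of brain lipoprotein particles, differed the other way. Its log2 intensity was 16.44, 16.63, 16.46 and 16.47 in the controls and 16.26, 15.90, 16.17 and 15.86 in the mutants. The groups did not overlap, but the adjusted p of 0.0506 (limma) missed the threshold, with a mean ratio of -0.45 ± 0.26. The ratio was -0.18 and -0.29 in the pairs with the mutant in Cy5 and -0.73 and -0.61 in those with the mutant in Cy3, and the fit took up this split as a dye effect of 0.22. Such a split was not particular to Apoe. The dye effect was 0.21 in Scd1. In Insig2 (0.21), Elovl6 (-0.17), Elovl5 (0.12) and Ebp (0.10) the sign of the ratio followed the dye. The SD over the pairs includes any such split. Apoe had 1 probe in 10 spots, which were averaged.

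Soat1, which esterifies cholesterol for storage, had log2 ratios of 0.19, 0.64, 0.07 and 0.34 (mean 0.31 ± 0.24, adjusted p = 0.212 by limma). Its further probes, at 0.33 and 0.16, had the same sign. Abca1 and Soat1 were the 2 of the 41 genes above 0 in all 4 pairs. Abcg1, a second sterol exporter, went from -0.30 in pair 1 to 0.59 in pair 2 (mean 0.05 ± 0.40), so the rise of Abca1 was not seen in it, although the difference between them was not tested. Lrp1, an apolipoprotein E receptor, stood at 0.17 ± 0.29, Stard4, a cytosolic sterol carrier, at -0.13 ± 0.38, and Cyp46a1, the neuronal enzyme that turns cholesterol into 24-hydroxycholesterol, at -0.10 ± 0.10.

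Set beside each other, both synthesis classes and the regulators had medians below 0 in every pair, as did the astroglial markers described further on, and the transport class did not. The median log2 ratio of the 17 sterol synthesis genes was -0.16, -0.18, -0.20 and -0.20 in pairs 1 to 4, and that of the 10 fatty acid synthesis genes was -0.21, -0.26, -0.36 and -0.12. The 7 transport and turnover genes had 0.15, 0.06, -0.11 and -0.04. The sterol median lay below the transport median in all 4 pairs, by a difference of -0.20 ± 0.09, and so did the fatty acid median, by -0.25 ± 0.12. Between sterol and fatty acid synthesis the difference was 0.05 ± 0.10 and changed sign in pair 4. With export and uptake alone (Abca1, Abcg1, Apoe and Lrp1) the median was 0.11, a value between Abca1 at 0.64 and Apoe at -0.45. The 7 regulators had a median of -0.12, with -0.11, -0.10, -0.24 and -0.15 in pairs 1 to 4; it was -0.061 when the outlier flags were applied after normexp and -0.18 without pair 2.

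**Figure D4:**
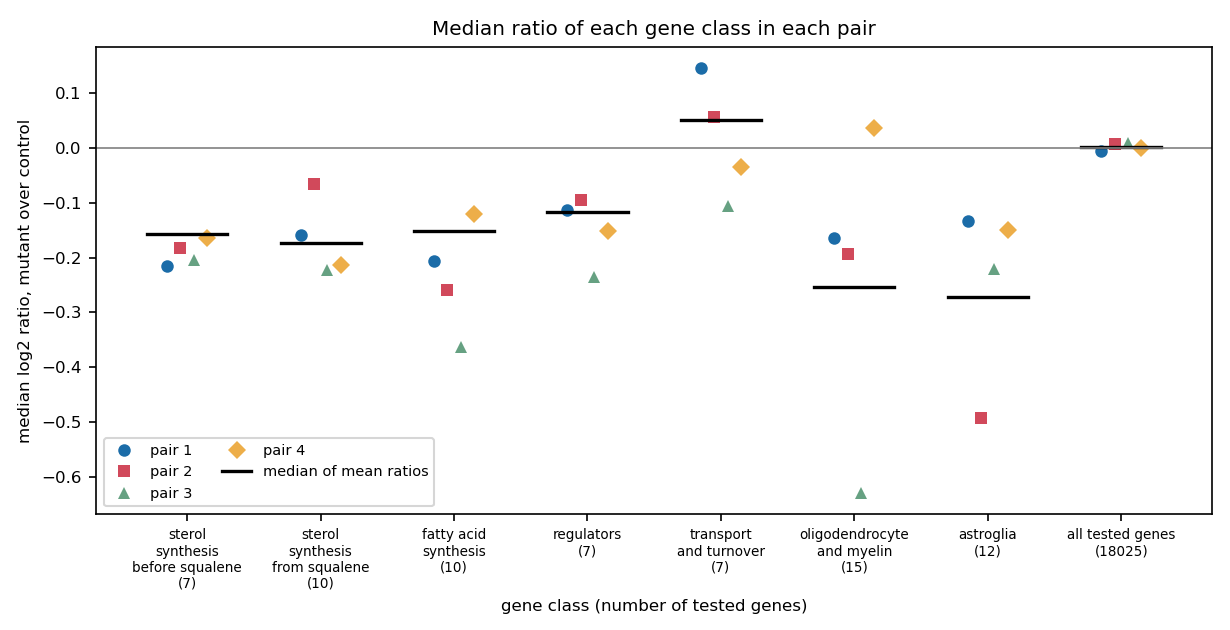
Median log2 ratio of mutant over control in each littermate pair (coloured symbols) for the classes of lipid genes, for markers of myelin and astroglia, and for all tested genes; black bars are the medians of the genes' mean ratios. Sterol synthesis, fatty acid synthesis, regulators and astroglia lie below 0 in all 4 pairs, transport and turnover lie on both sides of 0, and all tested genes lie at 0.

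Further genes of the same routes were read from lists of pathway genes that are not among the 41. Of 9 tested genes of sterol and isoprenoid metabolism none was called, and their median was 0.06. The smallest p values were those of the thiolase gene Acat2 (-0.14 ± 0.04), the electron donor gene Por (0.18 ± 0.22) and Acat1 (0.13 ± 0.11). Of 8 tested genes that process or hold back SREBPs none was called, with a median of 0.01. Erlin2 (0.12 ± 0.10), the ubiquitin ligase gene Rnf139 (0.09 ± 0.24) and Sec24a (0.06 ± 0.23) came first there. The lower means of the 17 sterol enzymes were therefore not accompanied by lower medians in these lists, though no difference between lists was tested.

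Of 25 other genes of fatty acid metabolism 1 rose and none fell, and the median was 0.02. The gene that rose was Thrsp, known as Spot 14, a nuclear protein tied to the induction of lipogenesis. Its log2 intensity was 12.31, 12.38, 12.61 and 12.84 in the controls and 13.74, 13.70, 13.62 and 14.21 in the mutants. The groups lay far apart, the ratios were 1.43, 1.32, 1.02 and 1.37, and the mean was 1.28 ± 0.18 (2.43-fold, adjusted p = 0.00704 by limma). Thrsp thus rose while Fasn, Acly, Acaca and Acss2, enzymes of the process it is tied to, had means between -0.16 and -0.03. None of these enzymes was called, and the further probes of Acaca above background had means of 0.01 and 0.02. Mid1ip1, a relative of Thrsp, stood at -0.25 ± 0.19, and Elovl2, an elongase of long polyunsaturated chains, at 0.71 ± 0.37 without a call (adjusted p = 0.136 by limma).

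Of 30 other genes of transport and turnover 1 rose and 1 fell, and the median was -0.08. Lcat, which esterifies cholesterol on lipoproteins, had log2 ratios of 0.56, 0.42, 0.41 and 0.57 and rose by 0.49 ± 0.08 (adjusted p = 0.0461 by limma). Clu, the gene of apolipoprotein J, had -0.55, -0.87, -0.71 and -0.95, a mean of -0.77 ± 0.17 (adjusted p = 0.0118 by limma). Without pair 1 or pair 3 neither was called, at an adjusted p of 0.330 and 0.187 for Lcat and 0.0596 and 0.0682 for Clu, and Lcat also missed the threshold without pair 4 (0.0531). Npc2, which carries cholesterol out of lysosomes, stood at -0.28 ± 0.18 and was not called.

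Of 9 tested genes reported as targets of miR-33, Abca1 rose and no other was called, and the median was 0.05. Hadhb and Cpt1a, both of mitochondrial fatty acid oxidation, had means of 0.32 ± 0.09 and 0.21 ± 0.06 and were above 0 in all 4 pairs (adjusted p = 0.128 and 0.303 by limma). Of the 9 genes, 7 had a mean above 0, 3 of them in all 4 pairs, and 2 were below 0, Srebf1 at -0.39 and Sirt6 at -0.10. The share below 0 was 22.2%, against 49.1% of all tested genes, a count without a test.

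Markers of cell types were read on the same arrays. Of 15 myelin genes none was called and 14 had a mean below 0, with a median of -0.25 and pair medians of -0.16, -0.19, -0.63 and 0.04. The log2 of their summed linear intensity was 17.99 to 18.27 in controls and 17.71 to 18.05 in mutants. The sterol synthesis median minus the myelin median was 0.00, 0.01, 0.43 and -0.24 in pairs 1 to 4 (mean 0.05 ± 0.28), so the medians were nearly equal in pairs 1 and 2 and differed, in opposite directions, in pairs 3 and 4. The myelin median was -0.38 without pair 1 and -0.11 without pair 3. Of 12 astroglial genes, Aldh1l1 and Gfap rose, and S100b, Aqp4 and Slc1a2 fell. Their median was -0.27, with 7 means below 0 and 5 above. The log2 of their summed linear intensity was 18.31 to 18.47 in controls and 17.97 to 18.22 in mutants. The sum weighs the brightest genes most. The mean log2 intensity over the 12 genes overlapped between groups, at 13.04 to 13.16 in controls and 13.01 to 13.25 in mutants. The astroglial pair medians were -0.13, -0.49, -0.22 and -0.15, and the median was -0.16 without pair 2 and -0.17 with the mean over probes. Microglial (10 genes), neuronal (10), endothelial (6) and choroid plexus (5) markers had no called gene, with medians of -0.01, -0.01, -0.08 and 0.14. The choroid plexus median was -0.59 in pair 2 and 0.59 in pair 4. All markers of these 6 lists were above background on every array, so none was at 0, and their part in the lipid gene ratios was not tested.

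Where a gene had several probes, they mostly had the same sign. Of 31 further probes above background, in 21 genes, 27 had the sign of the probe that stood for the gene and 4 did not (2 of Acaca and 1 each of Hmgcs1 and Insig2). Both of these Acaca probes lay at about 0 (0.01 and 0.02), so the mean of -0.16 given for Acaca was not seen in its further probes. Abca1, Scd2, Scd1, Fads1 and Apoe were among the 18 genes with a single probe, so their values have no second probe as a check.

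The calls of Abca1 and Scd2 rested on small margins. Each passed the threshold under 12 of 17 other settings, with ratios of 0.57 to 0.71 and -0.71 to -0.56. Each missed it with the scanner software's processed signals and with the deposited value table, which holds the same ratios (adjusted p = 0.0741 and 0.0720 by limma in both), with median centring in place of loess (0.0865 and 0.0606), and without pair 1 or pair 3. Apoe passed under 5 of 17 settings, Fads1 under 2 and Scd1 under 1, in each case including the one without pair 4, while Thrsp passed under all 17, Clu under 15 and Lcat under 6.

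**Figure D5:**
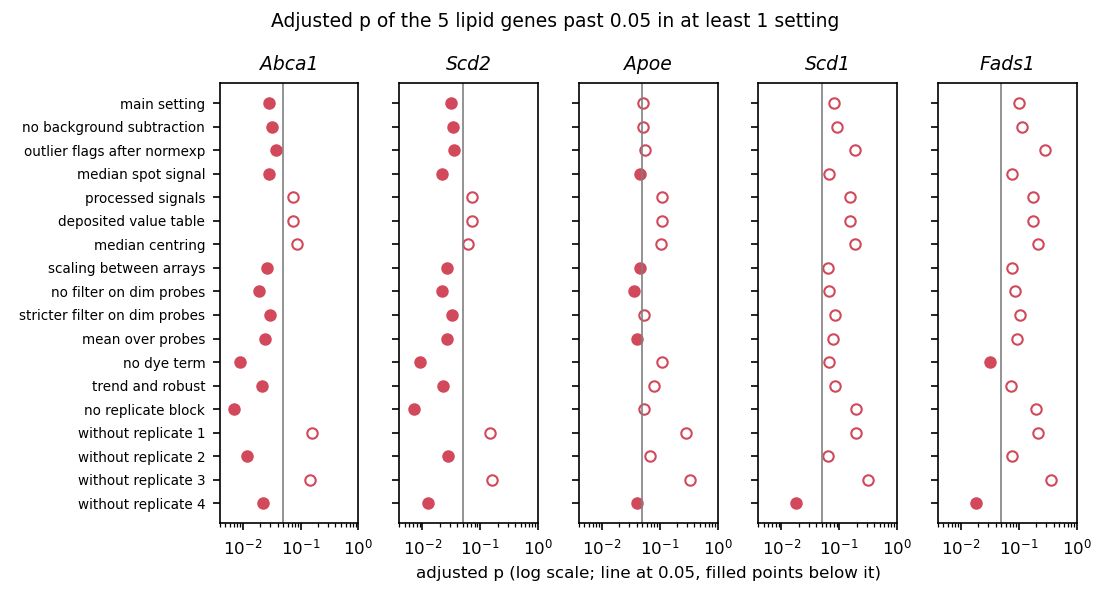
Adjusted p (log scale) of the 5 lipid genes that passed 0.05 in at least 1 setting, under the setting used for the report (top) and 17 others; filled points lie below the line at 0.05. Abca1 and Scd2 pass in 12 of the 17 other settings, Apoe in 5, Fads1 in 2 and Scd1 in 1.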

How the data were processed

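Transcript levels were read on 4 two-colour Agilent arrays from 500 ng of total RNA per channel. The deposited files hold linear spot and background intensities made by Agilent Feature Extraction 10.5.1.1, per the file headers, together with the software's processed intensities. They also hold the deposited log10 ratio of Cy5 over Cy3, which the value table of the authors repeats with the sign turned in pairs 2 and 4 (largest difference 4.84e-06). Probe positions are mm9, per the file headers.

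Ratios were recomputed with limma 3.58.1 (R 4.3.3), with statmod 1.5.0 and jsonlite 2.0.0 and the package data.table in version 1.17.8: normexp with an offset of 50, then loess within each array, without control spots and without the 143 to 248 spots per array that carried an outlier flag. Those spots were left out of the normexp fit too. Spots of a probe were averaged, and the brightest probe stood for a gene. Of 41174 probes, 24780 were named through their accession and the others by the array file. A gene was tested if its probe was well above background in the mutant or the control channel of all 4 arrays. The fit had a dye term, 2 residual and 3.37 prior degrees of freedom, and Benjamini-Hochberg adjustment over 18025 genes, with a value on 3 arrays for 28 of them. The fit was tested on simulated data.

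Pairing came from the shared array: residuals of its channels correlated at 0.394 to 0.704, and those of different arrays at no more than 0.316, which includes shared spot effects. Intensities per animal were normalized between arrays. Values in every pair are given for called genes and the 3 genes with the smallest p of a class; of other pathway genes those called and otherwise the first 3 are named, and further names were added after values were seen. The genes, lists and tests were chosen with earlier results of these data known. Promoters and microRNAs are RefSeq's (GRCm38.p6); 8 of the 41 genes had no promoter entry there.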

Additional observations from a re-analysis of the deposited data

How the results depend on the processing

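Of 697 ratios of the 41 genes under the 17 alternatives, 659 kept their direction and side of the threshold, 10 lost a call, 8 gained one and 20 changed sign. Genes called over the whole array were 106 higher and 80 lower. With the outlier flags after normexp they were 50 and 32, and 49 fell with the processed signals and with the deposited value table. Leaving out a replicate gave 41 to 215 higher (without replicate 1 and replicate 4) and 11 to 127 lower (without replicate 1 and replicate 2). With no replicate block, where the 8 channels were tested as separate samples without the pairing, they were 96 and 61, and the lipid genes called stayed at 1 higher and 1 lower. The number of lipid genes called higher was 0 with the processed signals, the value table and median centring, and 0 to 1 without a replicate (0 without replicate 1 or 3). The number called lower was 0 under the same settings, 2 with the median spot signal, scaling between arrays, no filter on dim probes, the mean over probes and no dye term, and 0 to 4 without a replicate. The 4 came without replicate 4.

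All ratios under the alternatives are those of the fit. With a replicate left out, the dye term does not weigh the remaining pairs equally. The median of the sterol genes was -0.18 with the mean over probes. Without a replicate it ran from -0.21 to -0.18, that of the genes before squalene from -0.21 to -0.16, and that of the regulators from -0.18 to -0.086; the regulators stood at -0.061 with the flags after normexp. Over all alternatives the myelin median ran from -0.38 to -0.11 and the astroglial median from -0.38 to -0.16. The transport median ran from -0.03 to 0.11 over all alternatives and so had no stable sign. Signs turned for genes with a mean near 0 or smaller in size than its SD over the pairs, such as Stard4 (-0.13 ± 0.38). With the flags after normexp, Lss was 0.048, Acss2 0.033 and Elovl5 0.0100, and Elovl5 was 0.0050 with the median spot signal and 0.0012 with scaling between arrays. Without a replicate, Hmgcs1 ran from -0.18 to 0.0077, Lss from -0.10 to 0.051, Hsd17b7 from -0.039 to 0.14, Ebp from -0.085 to 0.0021, Sc5d from -0.24 to 0.034 and Elovl5 from -0.022 to 0.018. Likewise, Scap ran from -0.12 to 0.0037, Insig1 from -0.32 to 0.23, Nr1h2 from -0.24 to 0.0041, Abcg1 from -0.14 to 0.25 and Stard4 from -0.27 to 0.011. The cause of these changes was not tested. With 4 pairs, differences of the size seen in most sterol genes did not pass, which does not show that they were equal.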
